A study of Mus musculus with 4 samples.

Results

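Peaks of open chromatin deep inside long genes were followed in MC38/gp100. This is a line of mouse colon adenocarcinoma cells that carries the melanocyte antigen gp100 in all groups. A peak counted when its mean level over both groups was at least 35.8 normalised reads and its centre lay inside a protein-coding gene longer than 200 kb. It also had to lie more than 20 kb from every protein-coding gene end. The rule found 5805 peaks in 748 of 989 such genes, out of 97699 peaks in the table and 74989 at or above that level. One group of 2 libraries was kept in DMSO for 5 days and the other, also of 2, in 1 µM GSK3368712 for the same time. GSK3368712 blocks the type I class of protein arginine methyltransferases. Accessibility was read by ATAC-seq, in which a transposase cuts and tags open DNA.

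Genes of this length are mostly intron, and open sites far inside them are usually enhancers or other regulatory elements, of the host gene or of a neighbour. Some are internal promoters, from which shorter transcripts of the same gene start. Type I arginine methyltransferases place asymmetric dimethyl marks on histones and RNA-binding proteins, and the H4R3 mark of PRMT1 is linked to active chromatin. Membership rests on position and level, and the gene table used gives no exons, so introns and exons were not separated here.

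Levels and adjusted p-values of single peaks are those of the authors' deposited table, which gives 1 mean per group, so the spread between libraries cannot be shown. The change is the inhibitor level minus the DMSO level in log2 units. Standard errors (SE) were derived here from a peak's own change and p-value. They are approximate, since the deposited difference of means need not be the coefficient that was tested. None is given for a change under 0.1 or a p-value of 0.9 or more, where too little is left to derive it from. At ends of marker genes the line gave a mixed picture. Peaks lay within 1 kb of an end of 2 of 8 epithelial markers, Krt8 and Cldn4, and none at Epcam or Cdh1. Among blood markers 5 of 6 had such a peak, each at or under 176 reads in DMSO and none at Ptprc, and among endothelial and fibroblast markers 4 of 6, with Col1a1 at 1574 reads. Among melanocyte markers 1 of 4 did, Pmel, the gene of gp100 itself, with none at Tyr, Dct or Mlana. The melanocyte sum that follows is therefore that of Pmel alone. Peaks of neighbouring genes were not separated. Summed over the list, reads in DMSO and under the inhibitor were 369 and 459 (epithelial), 2305 and 2309 (endothelial and fibroblast) and 2798 and 2539 (melanocyte). The blood list had 383 in DMSO and slightly more under the inhibitor. The part of such differences in the results was not tested. In bulk libraries, fewer cells with an open site and less opening per cell cannot be told apart.

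Some deep peaks lie at internal starts of their gene, and 6 of those promoters are shown here because the results on starts rest on them. Each sequence is the 250 bases before a start that RefSeq lists inside the gene, on GRCm38.p6, read 5′ to 3′ along the gene's strand. Capitals mark the letters of any of 4 motifs found on either strand, where matches may overlap. The GC box was searched with the letters GGGCGG. The motif known as the CCAAT box was searched with the letters of its name. Binding sites of the AP-1 family were searched with the letters TGANTCA. The core promoter element called the TATA box was searched with the letters TATAAA. Runx1, Foxp1, Stag1, Dst and Rbms1 stand for starts whose peak was not called, and Mad1l1 is the only one whose peak was called lower.
Runx1, chr16:92697330-92697579, minus strand: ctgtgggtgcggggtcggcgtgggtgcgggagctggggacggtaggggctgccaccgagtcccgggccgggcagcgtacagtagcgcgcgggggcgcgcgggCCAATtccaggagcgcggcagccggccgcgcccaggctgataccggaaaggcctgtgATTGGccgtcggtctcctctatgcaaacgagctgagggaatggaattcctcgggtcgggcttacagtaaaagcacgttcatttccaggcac
Foxp1, chr6:99028299-99028548, minus strand: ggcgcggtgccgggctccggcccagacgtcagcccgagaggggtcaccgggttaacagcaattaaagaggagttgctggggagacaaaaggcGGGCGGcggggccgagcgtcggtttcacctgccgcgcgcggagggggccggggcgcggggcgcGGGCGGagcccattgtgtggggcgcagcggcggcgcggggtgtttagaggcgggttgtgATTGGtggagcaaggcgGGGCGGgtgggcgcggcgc
Stag1, chr9:100643198-100643447, plus strand: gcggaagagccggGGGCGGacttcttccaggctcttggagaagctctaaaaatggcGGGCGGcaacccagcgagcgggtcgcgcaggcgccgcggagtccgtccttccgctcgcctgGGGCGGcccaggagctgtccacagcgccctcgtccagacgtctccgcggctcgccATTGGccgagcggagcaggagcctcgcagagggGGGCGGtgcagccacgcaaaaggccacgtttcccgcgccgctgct
Dst, chr1:34011345-34011594, plus strand: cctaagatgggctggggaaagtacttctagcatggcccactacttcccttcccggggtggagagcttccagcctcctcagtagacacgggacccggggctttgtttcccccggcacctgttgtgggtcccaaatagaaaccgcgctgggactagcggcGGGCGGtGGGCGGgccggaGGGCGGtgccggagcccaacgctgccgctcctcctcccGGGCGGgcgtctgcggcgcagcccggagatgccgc
Rbms1, chr2:60881439-60881688, minus strand: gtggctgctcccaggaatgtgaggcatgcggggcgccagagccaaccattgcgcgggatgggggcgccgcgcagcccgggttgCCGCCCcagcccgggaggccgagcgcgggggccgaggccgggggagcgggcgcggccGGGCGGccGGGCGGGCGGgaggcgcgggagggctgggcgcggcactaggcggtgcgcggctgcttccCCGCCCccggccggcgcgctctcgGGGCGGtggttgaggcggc
Mad1l1, chr5:140174919-140175168, minus strand: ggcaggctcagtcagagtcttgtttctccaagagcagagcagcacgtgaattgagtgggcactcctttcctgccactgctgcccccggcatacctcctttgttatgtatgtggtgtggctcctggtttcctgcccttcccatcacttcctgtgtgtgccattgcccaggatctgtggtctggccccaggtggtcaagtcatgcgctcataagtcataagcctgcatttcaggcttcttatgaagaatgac
The Rbms1 window holds 38 CpG dinucleotides and 6 GC boxes, the Foxp1 window 34 and 3, and the Stag1 window 31 and 4. The Runx1 and Dst windows hold 27 and 22 CpG, so all the uncalled examples lie above the median of 11 over start windows. The Mad1l1 window holds 3 CpG and none of the 4 motifs. The same is true of the Dock9 window, whose peak was not called, so the 6 windows do not represent all starts.

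Most deep peaks were not called as changed, and those that were called were mostly lower under the inhibitor. Of the 5805 peaks, 493 were lower and 36 were higher by the authors' adjusted p-value, and 5276 were not called, among them 15 with a deposited adjusted p-value of 1. The lower share was 8.49%, against 6.08% of all peaks at or above the level minimum, and the higher share was 0.62% against 0.491%. The median change was -0.14, against -0.07 over all those peaks. A change below 0 was found in 3900 deep peaks (67.2%), against 62.2% of all those peaks. The sum of normalised reads over the deep peaks under the inhibitor was 0.902 times that in DMSO, against 0.947 times over all those peaks. With changes scaled to the groups' summed reads, 304 deep peaks were lower and 53 higher, against backgrounds of 3.6% and 0.825%, and the median was -0.06. Centred on the median of all those peaks, 315 were lower and 51 higher, against 3.79% and 0.765%.

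Lower peaks had a median change of -0.73, a ratio of 0.603, and ranged from -2.18 to -0.20. Higher peaks had a median of 0.71, a ratio of 1.64, and ranged from 0.23 to 1.60. A change of at least 1 log2 unit was reached by 120 lower peaks, against a background of 1.31%, and by 8 higher peaks, against 0.104%. At an adjusted p under 0.01 there were 287 lower peaks, against 3.48%, and 20 higher ones, against 0.231%. Peaks were called by the peak caller in all 4 libraries for 426 of the lower and 31 of the higher ones. Only 33 lower peaks were found in both DMSO libraries and neither inhibitor library, so most losses were reductions of a peak that was still called.

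Other distal peaks and peaks at gene ends were counted in the same way. Intergenic peaks more than 20 kb from every gene end numbered 13518, of which 8.57% were lower and 0.821% higher, with a median change of -0.12. Peaks equally far from gene ends inside genes of up to 200 kb numbered 7830, of which 7.8% were lower, with a median of -0.13. Within the long genes, 1539 peaks nearer than 20 kb to a gene end had 5.59% lower and a median of -0.05. Peaks within 1 kb of a gene end numbered 12726, of which 1.53% were lower. These shares were not tested against each other, since peaks are not replicates and the table has no values per library.

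**Figure D1:**
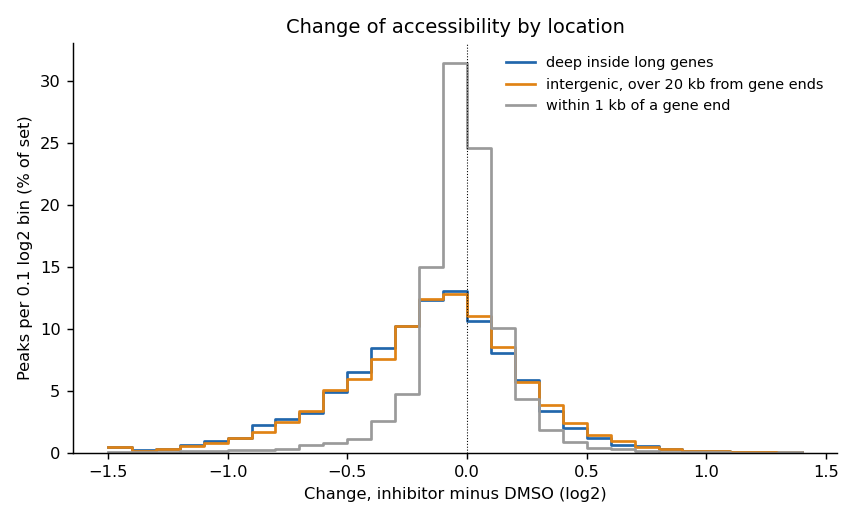
Distribution of the change in accessibility (x axis, inhibitor minus DMSO, log2; values past 1.5 are counted in the outermost bins) as a share of each set of peaks per 0.1 log2 bin (y axis). The curve of deep peaks in long genes, median -0.14, overlies that of distal intergenic peaks, median -0.12, and both are wider than that of peaks within 1 kb of gene ends, median -0.03.

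How many peaks were called depended on their level. From the level minimum up to a level of 6 on the log2 scale (reads) the median SE of peaks that have one was 0.38 and 2.39% of 1838 deep peaks were lower, whereas at levels of 9 and above it was 0.10 and 20.7% of 488 were lower. The median change was -0.16 in the first of these bins and -0.14 in the second. Distal intergenic peaks at levels of 9 and above had 20.5% of 1351 lower, and the table as a whole 8.24% of 13979. Weak peaks that were not called are therefore not shown to be unchanged.

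**Figure D2:**
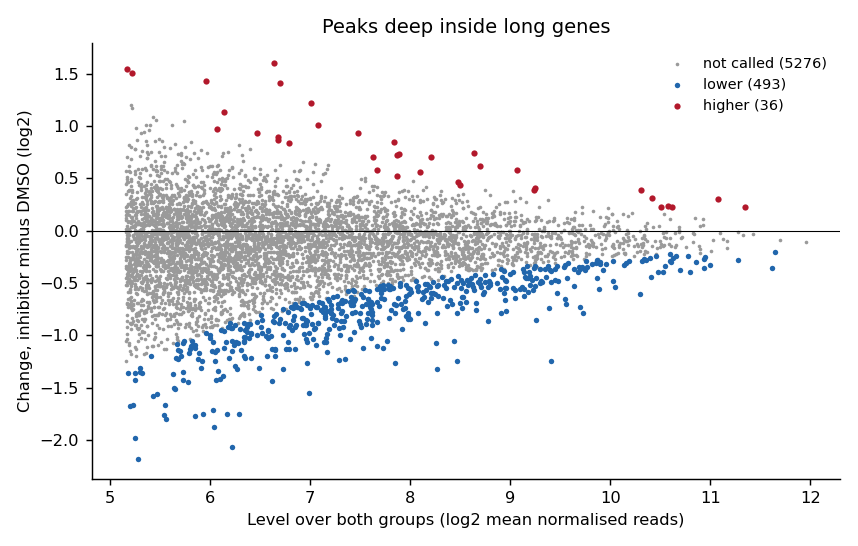
Change (y axis, log2) against mean level over both groups (x axis, log2 normalised reads) for the 5805 deep peaks, 1 point each. The 493 lower peaks and 36 higher peaks lie outside a band of uncalled peaks that narrows as the level rises.

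Counts were also taken by position. The median change was -0.12 for 1348 peaks 20 to 50 kb from a gene end, with 7.12% lower, and -0.19 for 529 peaks more than 200 kb away, with 8.32% lower. The shares between 50 and 100 kb and between 100 and 200 kb were 9.14% and 8.81%. None of the 529 peaks beyond 200 kb was higher, against 0.62% of all deep peaks, which leaves few to find in so small a number. Along the 5′, middle and 3′ parts of equal length, 8.14%, 8.77% and 8.68% of peaks were lower, over 4472 peaks in genes of known strand. Higher peaks were 14 of 1376 in the 5′ part (1.02%), 6 of 1563 in the middle (0.384%) and 6 of 1533 in the 3′ part (0.391%). These shares stand against 0.62% of all deep peaks, rest on few peaks and were not tested. Just inside the 20 kb limit, 7 of 100 peaks 20 to 22 kb from an end were lower, and just outside it 8 of 107. In genes of 200 to 210 kb 31 of 334 deep peaks were lower, and in those of 190 to 200 kb 15 of 282. Of the 244 deep peaks just above the level minimum 6 were lower, with a median change of -0.22. The 264 just below it had a median of -0.19 and could not be called, since no peak under the minimum has a deposited adjusted p-value below 1.

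Neighbouring deep peaks were compared within genes. The nearest deep peak of the same gene was also lower for 84 of 487 lower peaks (17.2%), and for 409 of 5169 others (7.91%). Where the nearest one lay up to 5 kb away the shares were 17.6% and 7.9%. Those for gaps of 5 to 20 kb were 21.2% and 7.61%, and for gaps over 20 kb 9.09% and 8.39%. This is a description of counts without a test. Peak levels were not matched, and peaks nearest to each other count from both sides.

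Among the stronger deep peaks, the largest losses lay in genes of varied function. A peak in Arhgap42, which encodes a GTPase-activating protein, fell from 962 to 405 reads, a change of -1.25 (SE 0.11). It lies on chromosome 9 from 9048353 to 9049457, 56.4 kb from a gene end, and the authors' deposited table gives an adjusted p of 2.3e-23. In Msi2, the RNA-binding protein Musashi-2, a peak on chromosome 11 from 88634509 to 88635400 fell from 439.6 to 176 reads. Its change was -1.32 (SE 0.16), and the authors' deposited table gives an adjusted p of 8.54e-14. Tafa1, which encodes a secreted chemokine-like protein, had a peak that fell from 498 to 209 reads, and Spidr, a scaffold of homologous recombination, one that fell from 326 to 136. Their changes were -1.25 (SE 0.15) and -1.26 (SE 0.18).

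The lowest change of this group belonged to a weaker peak in Wdr7, on chromosome 18 from 63901106 to 63901990, which fell from 189 to 64.4 reads, a change of -1.55 (SE 0.24). A second Wdr7 peak fell from 151 to 60.5 reads, a change of -1.32 (SE 0.25). The protein is a partner of the vacuolar proton pump. In Thsd4, which encodes a protein of matrix microfibrils, a peak fell from 143 to 52.7 reads, a change of -1.44 (SE 0.26). In Mctp2, a C2 domain membrane protein, one fell from 177 to 74.0 reads, a change of -1.26 (SE 0.24). All 8 peaks were called by the peak caller in both libraries of each group.

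The largest gains among the stronger peaks lay in 6 genes. Smg6, the endonuclease of nonsense-mediated decay, held the highest and also the eighth. On chromosome 11 from 75046909 to 75047664 reads rose from 49.2 to 149, a change of 1.60 (SE 0.27), and from 74992340 to 74993200 from 163 to 294, a change of 0.85 (SE 0.17). A peak in Pdzd2, a multi-PDZ protein, rose from 56.9 to 151 reads, a change of 1.41 (SE 0.27), and the authors' deposited table gives an adjusted p of 3.04e-05. In Cpq, which encodes carboxypeptidase Q, one rose from 77.2 to 180 reads, a change of 1.22 (SE 0.23). Fmnl2, an actin-nucleating formin, held 2 of these peaks, which rose from 89.9 to 181 and from 72.0 to 133 reads. A peak in Trio, an exchange factor for small GTPases, rose by 0.93 (SE 0.19), and one in Nckap5 by 0.87 (SE 0.25).

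The 3 peaks with the highest mean level had changes of -0.20 to -0.09. A peak of 3093 bp inside Schip1 and the overlapping gene Iqschfp had 4153 reads in DMSO and 3848 under the inhibitor, a change of -0.11 (SE 0.06). The next, in Zfp469, had 3421 and 3214 reads, a change of -0.09. Neither passed, at adjusted p-values of 0.306 and 0.522 in the authors' deposited table. In Dlgap1, a scaffold protein of synapses, a peak fell from 3444 to 2998 reads, a change of -0.20 (SE 0.06), and the authors' deposited table gives an adjusted p of 0.0235.

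By gene, losses were spread over many hosts. Of the 748 genes, 274 (36.6%) had at least 1 lower deep peak, 30 had a higher one and 17 had both. A single lower peak was found in 154 genes and 3 or more in 57, which together held 214 of the 493 lower peaks. Genes had a median of 6 deep peaks, 122 had only 1 and 241 of the 989 long genes had none. Of the peaks, 26 lay in more than 1 long gene and count for each. In the 293 genes with at least 8 deep peaks, the gene medians ranged from -0.65 to 0.24, with 259 below 0 and 32 above. The SD of those medians over genes was 0.14, and the median SD between peaks of the same gene was 0.34.

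**Figure D3:**
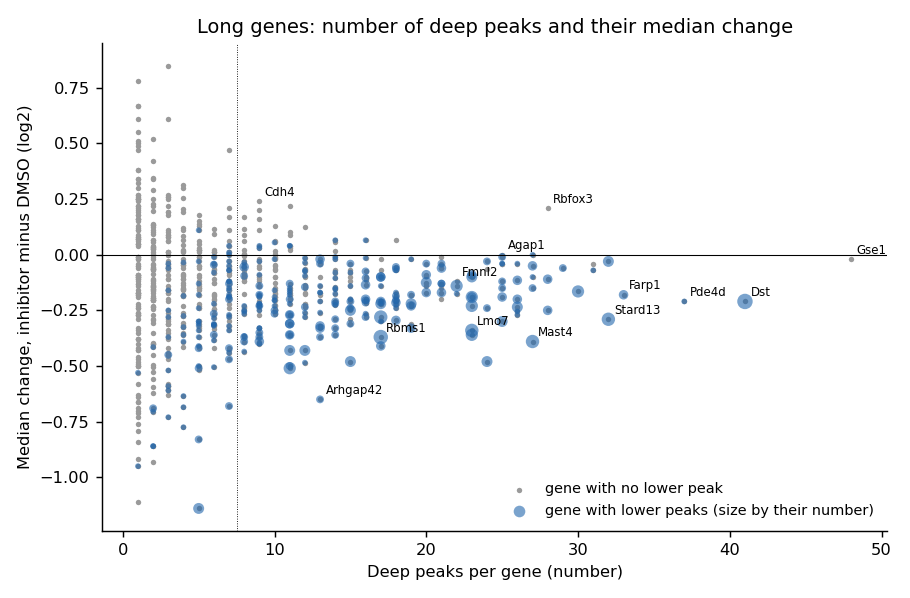
Median change of a gene's deep peaks (y axis, log2) against their number (x axis) for 748 long genes, with point size growing with the number of lower peaks and the dotted line just left of 8 peaks. Most genes to the right of the line lie below 0, Arhgap42 lowest at -0.65 and Cdh4 highest at 0.24, while Gse1 with 48 peaks lies at -0.02.

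Dst had the most lower peaks. It encodes dystonin, a large linker between cytoskeletal filaments, and 8 of its 41 deep peaks were lower, over 210 kb, with changes from -1.13 to -0.48. The strongest of the 8 fell from 653 to 443 reads, a change of -0.56 (SE 0.12), and the one with the lowest adjusted p fell from 465 to 290 reads (6.94e-05 in the authors' deposited table). Summed over its deep peaks, reads under the inhibitor were 0.842 times those in DMSO, against 0.902 times over all deep peaks. The peak at the internal Dst start shown above had 1305 reads in DMSO and 1243 under the inhibitor, a change of -0.07, and was not called.

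Rbms1, which encodes a single-strand nucleic acid binding protein, had 7 lower peaks among only 17, from -0.96 to -0.31. Its strongest lower peak went from 1261 to 1017 reads, a change of -0.31 (SE 0.08), and the one with the lowest adjusted p from 512 to 335 reads (3.44e-04 in the authors' deposited table). The internal start of Rbms1 lies among them. Its peak had 298 and 261 reads, a change of -0.19 (SE 0.19), while the deep peaks next to it on either side, at 792 and 613 reads and at 140.1 and 86.8 reads, had -0.37 and -0.69. The first of these was called and the second was not, since the authors' deposited table gives it an adjusted p of 0.0552. Summed reads were 0.787 times those in DMSO.

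Each of 4 further genes had 6 lower peaks. Arhgef3, a guanine nucleotide exchange factor, had 6 of 17 lower, and its strongest peak fell from 1252 to 861 reads, a change of -0.54 (SE 0.09). Summed Arhgef3 reads were 0.76 times those in DMSO, yet the peak at its internal start had 286 and 292 reads. Stard13, a GTPase-activating protein, had 6 of 32 lower, from -1.56 to -0.38, and a strong peak there fell from 1885 to 1448 reads. For that peak the authors' deposited table gives an adjusted p of 2.81e-05. Lmo7, a LIM domain protein of cell junctions, had 6 of 23 lower, and its peak of 3541 reads fell to 2759, a change of -0.36 (SE 0.06). Mast4, a microtubule-associated kinase, had 6 of 27 lower, from -1.01 to -0.30, and 1 higher peak at 0.84 (SE 0.25), 43.9 kb from a gene end.

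**Figure D4:**
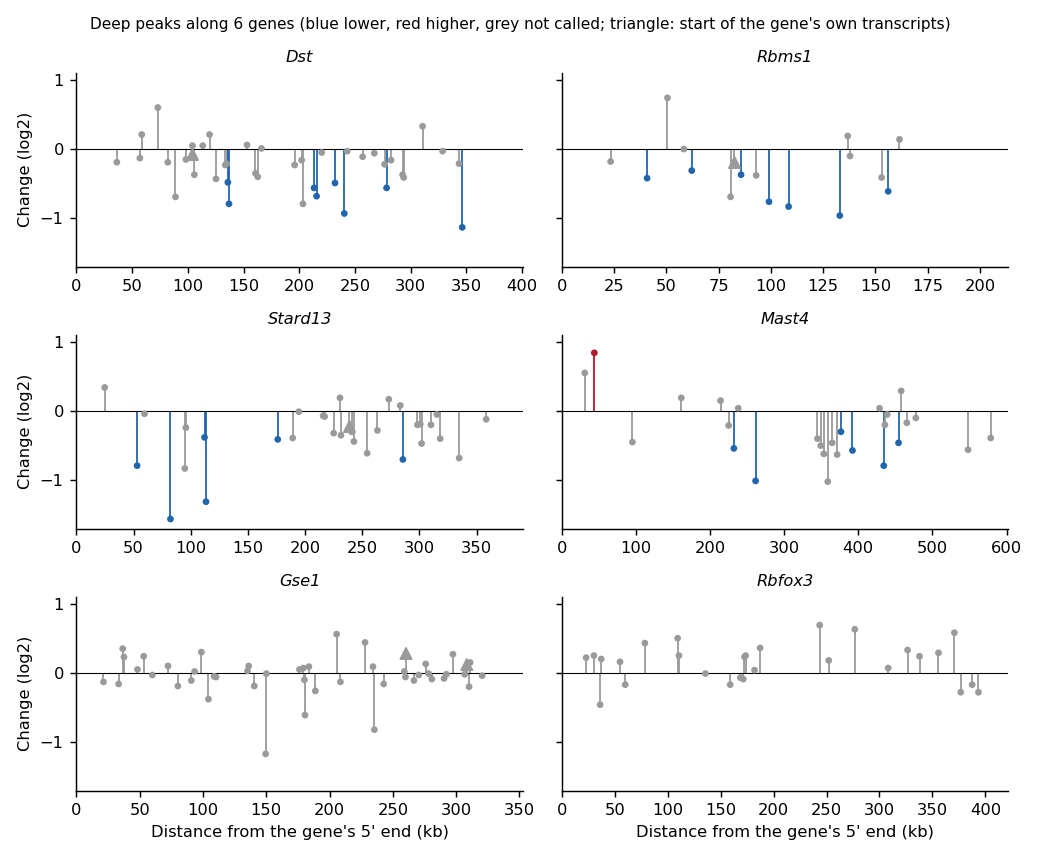
Change of each deep peak (y axis, log2) by its distance from the gene's 5′ end (x axis, kb) in 6 genes, with blue for lower, red for higher and grey for uncalled peaks, and triangles for peaks at an internal start of the gene. Dst, Rbms1, Stard13 and Mast4 hold 8, 7, 6 and 6 lower peaks, while Gse1 and Rbfox3 hold none and most Rbfox3 peaks lie above 0.

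Other genes with many deep peaks had none called. Gse1, which encodes a protein of a histone deacetylase complex, had the most deep peaks, 48, with 0 lower and 0 higher. Its median was -0.02, with 27 peaks below 0 and summed reads 0.999 times those in DMSO. The lowest adjusted p there was 0.0588 by the authors' deposited table, at a peak that went from 101 to 57.3 reads. Rbfox3, a neuronal splicing factor known as NeuN, had 28 deep peaks with 0 called and a median of 0.21, 9 of them below 0. They were weak, with a median level of 6.19, and the lowest adjusted p was 0.338 in the authors' deposited table. With at least 8 deep peaks, Cdh4 (a cadherin), Pdzd2, Rbfox3 and Tbc1d22a (a Rab regulator) had the highest medians, 0.24, 0.22, 0.21 and 0.20, and 1 called peak between them, the Pdzd2 gain above. All 9 Cdh4 peaks lay above 0, from 0.03 to 0.45, and none passed.

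The lowest medians were those of Arhgap42, Tmeff2, Anks1b and Pde4b, at -0.65, -0.51, -0.50 and -0.49. Every deep peak of the first 3 lay below 0, 13, 11 and 11 in number, of which 2, 5 and 2 were called lower. These genes were picked by their medians. Among the 293 genes with at least 8 deep peaks, 6 had all of them below 0 and 1 had all above. Tmeff2 encodes a membrane protein with follistatin-like domains, and its strongest lower peak fell from 719 to 484 reads, a change of -0.57 (SE 0.12). Summed Arhgap42 reads were 0.623 times those in DMSO. Pde4b, a phosphodiesterase that breaks down cyclic AMP, had 1 lower peak of 12, from 292 to 134 reads, to which the authors' deposited table gives an adjusted p of 3.21e-07. Its relative Pde4d had 37 deep peaks over a gene of 1302 kb, a median of -0.21 and also 1 lower peak, from 232 to 128 reads.

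In the remaining named genes, counts are to be read against the 8.49% lower and 0.62% higher of all deep peaks. Nav2, a navigator protein of growing axons, had 4 lower and 1 higher of 32, and the higher one rose from 226 to 367 reads, a change of 0.70 (SE 0.15). Farp1, a guanine nucleotide exchange factor, had 3 lower and 1 higher of 33. Arhgap26, a GTPase-activating protein, had 1 lower of 31, from 644 to 488 reads. Zfp469, a zinc finger gene, had 0 lower and 2 higher of 31, each with a change of 0.23. Fmnl2 had 3 higher peaks of 22. Agap1 (an Arf GTPase-activating protein) had 2 of 25 and St3gal3 (a sialyltransferase) 2 of 17, and none of these or Zfp469 had a lower deep peak. The St3gal3 peaks were strong, at 1226 and 1938 reads in DMSO and 1520 and 2385 under the inhibitor, changes of 0.31 (SE 0.08) and 0.30 (SE 0.07).

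Deep peaks at internal starts had small changes. RefSeq listed a start of the host gene inside 68 deep peaks of 60 genes, and 1 of the 68 (1.47%) was lower and 0 were higher, with a median change of -0.01. Of 4406 deep peaks without a listed start, in genes the start table covers, 383 (8.69%) were lower and 27 higher, with a median of -0.15. The start peaks were stronger, with a median level of 8.66 against 6.54. In the level range of the middle 50% of start peaks, from 7.63 to 9.68, 1 of 34 start peaks and 149 of 969 others (15.4%) were lower. For 1298 deep peaks of 172 genes, starts were not looked up. With a start allowed within 500 bp of the peak the count was 1 lower of 82. The difference was not tested, and the comparison was chosen after seeing the data.

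**Figure D5:**
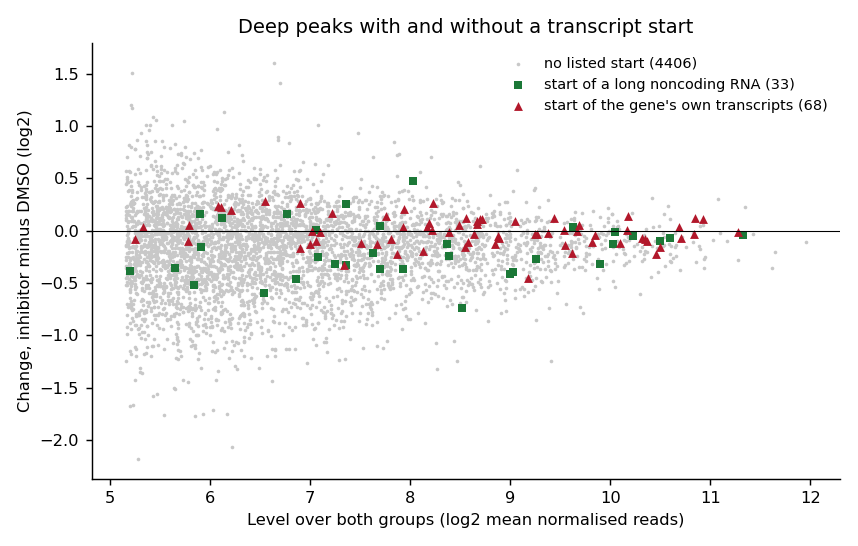
Change (y axis, log2) against mean level (x axis, log2 normalised reads) for deep peaks with no listed start, with a start of a long noncoding RNA and with a start of the host gene. The 68 peaks at starts of the host gene lie between -0.45 and 0.28, around a median of -0.01.

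The promoters shown above belong to these peaks. Runx1, a transcription factor of blood and epithelial cells, has an internal promoter well known as its proximal one, and its peak had 1342 reads in DMSO and 1269 under the inhibitor, a change of -0.08 that was not called. At the Foxp1 start, in the gene of a forkhead repressor, the peak had 744 and 750 reads, a change of 0.01, also not called. At the start in Stag1, which encodes a cohesin subunit, it had 1885 and 2034 reads, a change of 0.11 (SE 0.16). The exception, in the spindle checkpoint gene Mad1l1, fell from 671 to 491 reads, a change of -0.45 (SE 0.12), and the authors' deposited table gives an adjusted p of 0.00392.

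By CpG content of the 250 bases, the 36 start peaks at or above the median of 11 CpG had 0 lower and a median of 0.01, ranging from -0.21 to 0.28, and the 32 below it had 1 lower and a median of -0.03. The median GC content of the 69 start windows was 57.2%, against 55.6% in 21262 windows of protein-coding genes. A GC box was in 44.9% of the 69 windows and 42.6% of the latter, a CCAAT box in 40.6% and 35.4%, an AP-1 site in 11.6% and 6.13%, and a TATA box in 2.9% and 11.6%. The AP-1 and TATA box shares of the start windows rest on 8 and 2 windows. Start windows lie at open peaks, while the windows of protein-coding genes were taken whether open or not. A match of letters does not show binding.

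Grouped by what the host genes encode, the share of lower peaks in the 8 role lists ran from 7.41% to 11.6%, around the 8.49% of all deep peaks. Higher peaks made up at most 1.43% of a list, against 0.62%, and 4 lists had none. Over all 748 genes 36.6% had a lower deep peak and the median change was -0.14. Of 73 listed genes of transcription factors and cofactors, 50 were over 200 kb and could hold a deep peak. Of these 44 had one, 24 with a lower and 0 with a higher peak. Of their 478 peaks 43 were lower, with a median of -0.16. In the other lists, genes with a deep peak are likewise counted among the listed genes over 200 kb. In Creb5, a CREB-family activator, a peak fell from 936 to 576 reads, a change of -0.70, and the authors' deposited table gives an adjusted p of 1.45e-08. Peaks in the corepressor gene Rere, in Arid1b, a chromatin remodeller subunit, and in Glis3 changed by -0.87, -0.49 and -1.20, all called lower.

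Small GTPase regulators and cytoskeletal genes with a deep peak numbered 56 of 59 over 200 kb. Lower peaks lay in 24 and higher ones in 7. Of their 697 peaks 57 were lower and 10 higher, with a median of -0.16. Besides Arhgap42 and Arhgef3, lower peaks included one in Rapgef4, an exchange factor for Rap, from 468 to 226 reads, a change of -1.05, and the authors' deposited table gives an adjusted p of 3.54e-10. A peak in Tns3, a focal adhesion protein, fell from 1520 to 996 reads and lies just past the distance limit from a gene end.

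Receptor kinases, phosphatases and signalling enzymes numbered 40 of 52, with lower peaks in 16 and higher ones in 2. Of their 342 peaks 27 were lower and 2 higher, with a median of -0.18. Beside Pde4b and Mast4, lower peaks lay in the receptor phosphatase gene Ptprm, from 1128 to 765 reads, a change of -0.56, and in Frmd4a, a scaffold of cell polarity, from 317 to 180 reads, a change of -0.82. Matrix, proteoglycan and cadherin genes numbered 27 of 41, with lower peaks in 11 and higher ones in 1. Of their 189 peaks 22 were lower and 2 higher, with a median of -0.18. Fndc3b, a membrane protein with fibronectin repeats, had a peak that fell from 1563 to 1152 reads, a change of -0.44, and peaks in Galnt13, a glycosyltransferase, and Adamts6, a matrix protease, had -0.59 and -0.79, both called.

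RNA-binding protein genes numbered 14 of 15, with lower peaks in 8 and higher ones in 1. Of their 189 peaks 19 were lower and 2 higher, and the median was -0.09. Beside Msi2, Rbms1 and the Smg6 gains, a peak in Rbm20, a splicing factor of muscle, fell from 211 to 105 reads (adjusted p 1.68e-04 in the authors' deposited table). Neural adhesion and guidance genes numbered 27 of 50, with lower peaks in 6 and higher ones in 0. Of their 167 peaks 18 were lower, with a median of -0.16. Lower ones lay in Tenm4, a teneurin, from 855 to 564 reads, in Sema3a, a repulsive guidance cue, from 449 to 290, in the ErbB ligand gene Nrg1 from 149 to 71.5 and in Csmd3 from 282 to 167.

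Ion channel and receptor genes numbered 29 of 50, with lower peaks in 10 and higher ones in 0. Of their 216 peaks 16 were lower, with a median of -0.08. The potassium channel gene Kcnh1 had a peak that fell from 294 to 142 reads, a change of -1.05, and the calcium channel gene Cacna1c a weak one that fell from 111 to 32.9, a change of -1.75 (SE 0.35). A peak in Kcnip4, which encodes a potassium channel interacting protein, changed by -0.93 and was called lower. Genes of common fragile sites, as known from human cells, numbered 20 of 28. Of their 124 peaks 10 were lower and 0 higher, with a median of -0.14. Lower peaks lay in 4 genes. These were Exoc4, Foxp1, Sdk1 and Wwox, with changes of -0.84, -0.56, -1.68 and -0.74 at their most significant peaks. The 502 genes in no list had a lower peak in 174 cases and a higher one in 19, with 8.34% of 3477 peaks lower and a median of -0.13. Some genes stand in more than 1 list, and the lists were not tested against other genes.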

How the data were processed

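ATAC-seq was run on 4 libraries of MC38/gp100 cells, 2 per group, and the authors deposited 1 table of 97699 peaks. The submitters' processing notes name build mm10, DESeq2 and DiffBind 2.8.0 for the comparison, HISAT2 2.1.0, MACS2 2.1.1.20160309 for peaks, and Picard 1.113. Settings and the handling of the transposase offset were not given in the sources used here. Per the file header, the deposited levels are log2 means of normalised read counts per group, the deposited fold is their log2 difference, and the p-value and adjusted p-value are the authors' own. The table gives no values per library, so depth per library is unknown, there is no spread within a group, and the labels do not say that libraries came from separate cultures. The p-values therefore rest on how far 2 libraries of a group differ, and that difference may be only technical. The 2 columns counting the libraries in which a peak was called were read as DMSO first, the order of the levels, since their names give no group.

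Gene ends came from RefSeq on GRCm38.p6, the assembly behind mm10, with no exons. A RefSeq table of 250 bases before and 50 after each listed start gave strand and internal starts for 576 of 748 genes. Calls use the authors' adjusted p-value at 0.05. Standard errors were derived from a peak's change and p-value with the normal distribution (two-sided; Python 3.11.15, scipy 1.17.1). They assume that the difference of mean levels is the coefficient behind the p-value, which need not hold. For 1305 deep peaks, among 22831 of the 74989 tested, with a change under 0.1 or a p-value of 0.9 or more, none is printed and the median of peaks of like level was used in rescaling only. These errors gave p-values after taking a constant off every change, -0.08 for the groups' summed reads over peaks and -0.07 for the median of peaks at or above the level minimum. This step was also run on simulated data, with noise drawn from these same errors and a larger constant. That run cannot show whether the assumption about the coefficient holds. Peaks share chromatin and are not replicates, so sets of peaks were compared as counts with no test.

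The genes and peaks named were the 8 lowest and 8 highest called changes at or above the median level, the 3 strongest peaks, and genes with the most deep peaks (8), the most lower ones (6), the most higher ones (4) and the lowest and highest medians (4 each, with at least 8 deep peaks). Up to 4 genes per role list were named by smallest p-value, of which 1 is not reported here. Members and lists were chosen with earlier results of these data known, and the look at internal starts was chosen after seeing the data. The alternatives tried were stricter calls, other scalings, gene lengths, distances, level filters and merging.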

Additional observations from a re-analysis of the deposited data

How the results depend on the processing

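The main counts were 493 lower and 36 higher deep peaks, 274 genes with a lower one and a median change of -0.14. Stricter calls lowered the counts by construction: 287 lower and 20 higher at an adjusted p under 0.01, and 120 and 8, in 105 genes, with at least 1 log2 unit. Scaling to summed reads over peaks gave 304 lower and a median of -0.061, and median centring 315 and -0.07. Genes longer than 100 kb gave 865 lower and 65 higher in 540 genes, and those longer than 400 kb 183 and 10 in 97, since more or fewer peaks enter. Other distances, a level of at least 6 and 1 peak per 10 kb left the counts within 1.5 times and the median between -0.15 and -0.13, and the latter was -0.13 without a level filter. All 16 changes named as lowest or highest kept their call under both scalings. At an unadjusted p under 0.05, 1082 deep peaks were lower and 143 higher. No paired analysis was possible because the table has no values per library, and for the same reason leaving out each replicate was not run. Depth per library is unknown and few weak peaks could be called.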

Other observations

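Deep peaks also lay at starts of noncoding genes nested in the long genes. RefSeq listed the start of a long noncoding RNA inside 33 deep peaks of 30 genes, of which 4 (12.1%, against 8.49% of all deep peaks) were lower and 0 higher, with a median change of -0.21. Their median level was 7.7, against 6.58 for all deep peaks, and 12.4% of deep peaks at levels of 7 to 8 were lower. So few peaks at noncoding starts cannot show whether they differ from the rest. The lower ones were those of 0610039H22Rik in Msi2, which fell from 458 to 274 reads (adjusted p 3.6e-05 in the authors' deposited table), B930095G15Rik in Farp1, from 592 to 449, 5430435K18Rik in Stard13, from 584 to 439.6, and Gm30284 in Prkce, from 1060 to 849. The peak at the start of Dnm3os in Dnm3, the precursor of miR-199a and miR-214, covered the hairpin of Mir199a-2 and had 1226 reads in DMSO and 1184 under the inhibitor, a change of -0.05. Hairpins of 5 miRNAs or miRNA-like genes overlapped deep peaks. Those of Mir3075 in Zmiz1 and Mir3092 in Fndc3b lay in lower peaks, at -0.65 and -0.22.

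By chromosome, the share of lower deep peaks ran from 5.28% of 265 on chromosome 12 and 5.59% of 465 on chromosome 8 to 11.1% of 198 on chromosome 17 and 11.3% of 62 on the X chromosome. Over all deep peaks the share was 8.49%, and the X share rests on 7 lower peaks. Chromosome 8 holds Gse1 and Zfp469, and its median change was -0.08. Chromosome 7 had the same median, with 9.22% of 217 lower. The shares were not tested.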
